A study of Mus musculus with 9 samples.

Results

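Type I interferon-stimulated genes were followed across all 9 RNA sequencing libraries of induced regulatory T cells (iTreg), a suppressive kind of CD4 T cell that is made in vitro and marked by Foxp3. The 36 genes were taken by symbol from the 28111 genes of the deposited count table. They leave out the guanylate-binding and immunity-related GTPase families, although Mx1, a dynamin-like GTPase, is among them. Of the 36 genes, 34 passed the filter on low counts and were tested with 14817 genes in all.

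The cells came from mice with a Glut1 transgene (Glut1Tg, 4 libraries) and from wild-type controls (WT, 5 libraries), all C57BL/6J. Glut1, the product of Slc2a1, carries glucose into the cell. The labels add a mouse group to each library. Group 2 comprised Glut1Tg replicate 1 and WT replicates 2, 4 and 5, and group 1 comprised Glut1Tg replicates 2, 3 and 4 and WT replicates 1 and 3. The sources used here do not give what sets the mouse groups apart, the promoter that drives the transgene, the age of the mice or the length of culture. Whether each library is an animal or a culture of its own is not stated either, so p-values reflect only how these libraries vary, possibly for technical reasons.

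Type I interferons are secreted by cells that sense foreign or misplaced nucleic acid, and they act through a receptor of Ifnar1 and Ifnar2 chains. The kinases Jak1 and Tyk2 then activate the factor ISGF3, which holds Irf9, and ISGF3 binds the interferon-stimulated response element in the promoters of its targets. In T cells these genes are known to follow type I interferon from neighbouring cells and, for a part of them, interferon gamma and signals of activation.

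The 7 promoter stretches shown were chosen among genes that both carry matches to that element and stood out in a comparison. Those of Ifit1, Ifit3, Oas1a, Isg15 and Rsad2 were taken for the library that stood apart. Those of Oas3 and Bst2 were taken for mouse group and for genotype, although Bst2 was not called. Each is RefSeq sequence of build GRCm38.p6, read 5′ to 3′ on the strand of the gene and ending before the start site, with each base that falls in a match to GAAANNGAAA or its reverse complement TTTCNNTTTC in capitals. Matches may overlap, as they do in Oas1a, Isg15 and Bst2.
Ifit1, chr19:34640774-34640843, plus strand: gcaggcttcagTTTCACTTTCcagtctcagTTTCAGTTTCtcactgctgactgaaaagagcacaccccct
Ifit3, chr19:34583373-34583446, plus strand: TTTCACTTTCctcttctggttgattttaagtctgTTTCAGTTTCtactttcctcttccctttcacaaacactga
Oas1a, chr5:120907526-120907569, minus strand: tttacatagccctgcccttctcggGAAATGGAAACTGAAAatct
Isg15, chr4:156200845-156200914, minus strand: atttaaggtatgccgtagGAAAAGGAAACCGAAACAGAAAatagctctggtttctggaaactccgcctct
Rsad2, chr12:26456533-26456602, minus strand: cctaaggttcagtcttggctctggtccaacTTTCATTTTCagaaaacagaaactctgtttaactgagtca
Oas3, chr5:120777695-120777764, minus strand: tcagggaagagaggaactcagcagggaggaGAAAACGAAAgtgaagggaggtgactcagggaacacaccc
Bst2, chr8:71537557-71537626, minus strand: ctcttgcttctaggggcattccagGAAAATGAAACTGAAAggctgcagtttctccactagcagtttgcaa

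A promoter window of 300 bases, 250 before to 50 after the start site, was found for 26 of the 36 genes, and 11 of the 26 (42.3%) held a match on either strand. The same motif occurred in the windows of 3.99% of all genes in that table. Besides the 7 genes above, the matches were in Ifih1, Ddx58, Eif2ak2 and Trim30a. In Ifih1, Ddx58 and Eif2ak2 the match did not lie before the start site, and Trim30a had a match before 1 of its start sites. The windows of Ifit2, Oasl1, Oasl2, Adar, Irf1, Irf7, Irf9, Herc6, Dtx3l, Cmpk2, Samd9l, Xaf1, Ifi44, Ifi35 and Lgals3bp did not hold these letters. Some of these genes stood out too: Herc6 was the clearest difference by mouse group, and Oasl2 and Lgals3bp were far above in Glut1Tg replicate 3. Oas2, Dhx58, Zbp1, Usp18, Parp9, Parp14, Mx1, Rtp4, Ifi27 and Ifi27l2a were not in the table.

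Libraries held 20881035 to 31196428 counts. Slc2a1 had 260 to 496 CPM (counts scaled to library size) in Glut1Tg libraries and 29.7 to 58.7 CPM in WT libraries, so the genotype labels matched the transgene in every library. The 9 T cell and Treg markers, Foxp3, Cd3e and Cd4 among them, summed to 3073 to 6473 CPM in Glut1Tg libraries and 3906 to 6195 CPM in WT libraries. The minimum was Glut1Tg replicate 3, at 0.713 times the median of the other 8 libraries, and Foxp3, Cd4, Cd3e, Cd28 and Ikzf2 were each lowest there. The remaining markers were not lowest in that library: Cd3d was at 556 CPM, Ctla4 at 370, Il2ra at 343 and Tnfrsf18 at 211 CPM. Cd3d was lowest in Glut1Tg replicate 1, at 295 CPM. Glut1Tg replicate 3 stood apart in other markers too. Its mast cell and basophil markers summed to 2539 CPM, against 93.2 to 853 in the others. Its macrophage and neutrophil markers summed to 488 CPM, against 6.92 to 47.9, and its platelet and erythroid markers to 1018 CPM, against 4.12 to 272. All 13 macrophage and neutrophil markers and all 6 platelet and erythroid markers were highest there, as were 9 of 10 mast cell and basophil markers. Glut1Tg replicate 1 and WT replicate 2 stood apart in proliferation markers, with sums of 3837 and 3955 CPM against 653 to 1765 in the others. Xist was at 256 and 340 CPM in Glut1Tg replicates 2 and 4 and at most 1.32 CPM elsewhere, and the Y-linked Ddx3y was at 0.298 and 0 CPM in those 2 libraries, so the female pattern occurred in Glut1Tg only. In bulk RNA, fewer cells of a type and less RNA per cell cannot be told apart.

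Levels between genes were compared per length, as mean CPM per kilobase of annotated exon over the 9 libraries. By that measure Ifi27l2a (429 CPM per kilobase) and Irf1 (168), a transcription factor that T cells also induce with interferon gamma, were highest. Ifi27 (57.9), Ifi35 (35.4), Irf9 (33.5), Bst2 (32.0), Lgals3bp (31.9), Zbp1 (28.4) and Dtx3l (27.9) came next. Ifit3 (10.1), Rtp4 (9.39) and Irf7 (9.11) were intermediate. Some genes known as strong interferon responders in many cell types were low: Isg15 was at 3.45, Ifit1 at 1.78, Oas1a at 1.12, Oas2 at 0.294, Rsad2 at 0.227 and Mx1 at 0.186 CPM per kilobase. The 2 genes that failed the filter were lower still, Oasl1 at 0.184 and Ifi44 at 0.0600 CPM per kilobase. Oasl1 had 4, 4, 59 and 4 counts in Glut1Tg replicates 1 to 4 and 8, 1, 15, 7 and 5 counts in WT replicates 1 to 5. Ifi44 had 14, 0, 26 and 7 counts in Glut1Tg and 4, 8, 0, 17 and 9 counts in WT, so in both genes Glut1Tg replicate 3 had the most.

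By genotype none of these genes was called. No gene of the 34 passed edgeR's quasi-likelihood test at an adjusted p of 0.05, against 0.00675% of all genes tested, and DESeq2 called 0 of the 34 as well. At an unadjusted p of 0.05 there was 1 gene (Bst2), against 6% of all genes. Fold changes, as Glut1Tg over WT, were positive for 21 and negative for 13 of the 34 genes, with a median log2 fold change of 0.07 and 0.02 over all genes. None of the 34 genes had Glut1Tg and WT libraries that did not overlap in CPM, against 1.59% of all genes. The median changed sign with the library left out: it was -0.28, with 6 positive and 28 negative, without Glut1Tg replicate 3, and 0.32, with 29 positive and 5 negative, without Glut1Tg replicate 1. Without WT replicate 1 it was -0.22. Within mouse group 2 (1 Glut1Tg, 3 WT) the median over 35 tested genes was -0.50, and within mouse group 1 (3 Glut1Tg, 2 WT) it was 0.36.

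**Figure D1:**
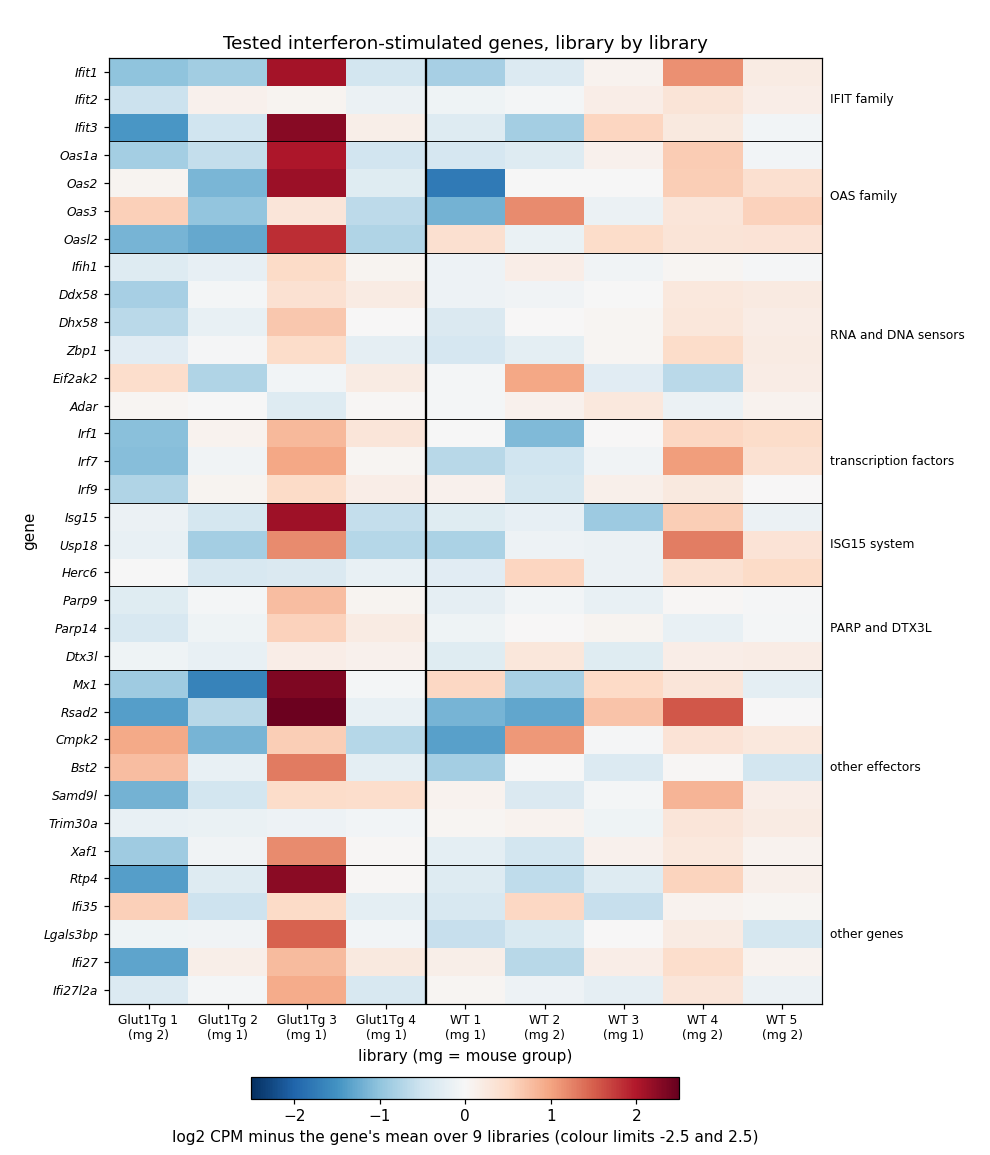
Each row is one of the 34 tested genes, grouped by role, and each column a library, Glut1Tg on the left and WT on the right, with its mouse group (mg) below. Colour gives log2 CPM minus the gene's mean over the 9 libraries. Glut1Tg replicate 3 is the highest library for 22 of the 34 genes and Glut1Tg replicate 1 the lowest for 17.

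The signal was carried by single libraries. Glut1Tg replicate 3 was the highest of the 9 libraries for 22 of the 34 genes (64.7%), against 21.3% of all genes. Its mean over the 34 genes of log2 CPM relative to each gene's own mean was 0.98, and the other 8 libraries lay between -0.45 and 0.39. In that library 15 of the 34 genes (44.1%) were at more than 2 times the median of the other 8 libraries, against 10.1% of all genes. Glut1Tg replicate 1 was at the other end, the lowest library for 17 of the 34 genes (50%), against 20.4% of all genes. When Glut1Tg replicate 3 was left out, WT replicate 4 was highest for 20 of the 34 genes (58.8%), against 13.8% of all genes. WT replicate 4, with a mean of 0.39, was also next after Glut1Tg replicate 3 in mast cell and basophil markers (853 CPM), in macrophage and neutrophil markers (47.9 CPM) and in platelet and erythroid markers (272 CPM). Glut1Tg replicate 1, with a mean of -0.45, had the lowest sums of all 3 lists, 93.2, 6.92 and 4.12 CPM. Other libraries did not keep that order: Glut1Tg replicate 2, with a mean of -0.40, had 658 CPM of mast cell and basophil markers, the third highest sum, and WT replicate 2, with a mean of -0.13, had the next to lowest sums, 128, 12.7 and 4.87 CPM. The part of these other cell types in the interferon-stimulated genes was not tested. Dendritic cells, among them the plasmacytoid kind known as a source of type I interferon, had a marker list that summed to 35.4 CPM in Glut1Tg replicate 3, against 13.2 to 19.0 CPM in the others, with 4 of 8 markers highest there. Itgax, which macrophages also express, gave 17.3 CPM of that sum. Also highest there were Flt3 (3.52 CPM, against 0.118 to 0.301 CPM in the others), Xcr1 (2.04 CPM) and Clec9a (0.240 CPM). Zbtb46 was highest in Glut1Tg replicate 1, at 6.01 CPM. Of the plasmacytoid markers, Siglech was at 0 in 7 libraries and at most 0.0406 CPM, Tcf4 was at 5.17 to 7.85 CPM and Ccr9 at 0.0756 to 4.42 CPM, and none of the 3 was highest in Glut1Tg replicate 3.

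**Figure D2:**
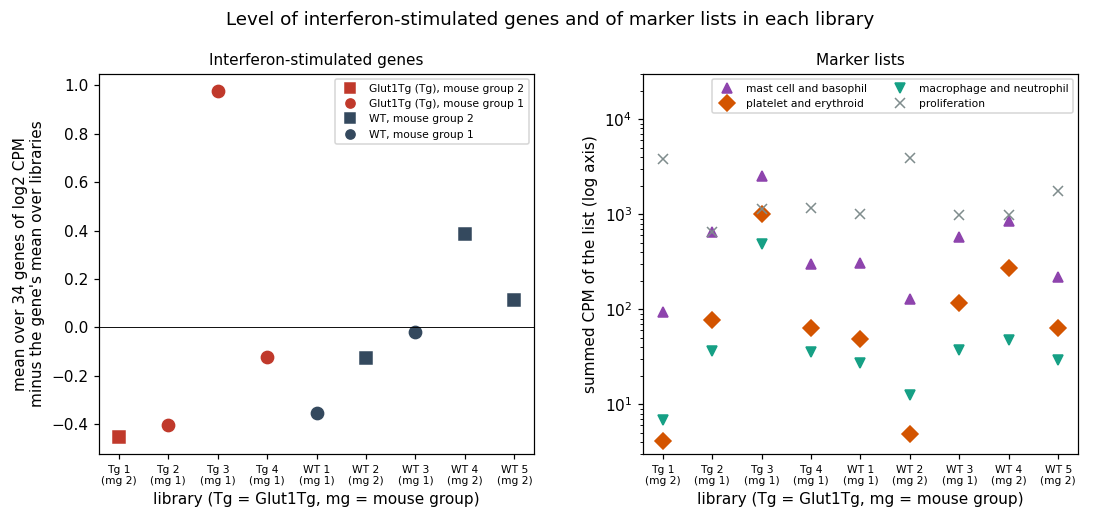
Left, for each library, the mean over the 34 genes of log2 CPM minus the gene's mean over libraries. Right, on a log axis, the summed CPM of 4 marker lists in the same libraries. Glut1Tg replicate 3 is highest on the left (0.98) and in the mast cell and basophil (2539 CPM), platelet and erythroid (1018 CPM) and macrophage and neutrophil (488 CPM) lists.

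The IFIT genes encode proteins that bind foreign RNA and block its translation. Ifit1 had 1.74, 1.94, 15.4 and 2.61 CPM in Glut1Tg replicates 1 to 4, against 1.99, 2.84, 3.82, 7.998 and 4.14 CPM in WT replicates 1 to 5. Ifit3 had 4.77, 9.40, 64.2 and 14.7 CPM in Glut1Tg and 10.6, 7.30, 19.1, 15.6 and 12.6 CPM in WT. For both genes Glut1Tg replicate 3 was above every other library, and the remaining Glut1Tg libraries lay within or below the WT range. The log2 fold change of Ifit1 was 0.32 ± 0.93 (SE; adjusted p = 0.92) with all libraries and -0.83 ± 0.48 without Glut1Tg replicate 3, and that of Ifit3 was 0.23 ± 0.77 (adjusted p = 0.93) and -0.71 ± 0.38. Ifit2, on the same stretch of chromosome 19, had 23.0, 35.6, 34.9 and 29.9 CPM in Glut1Tg and 30.9, 32.2, 37.1, 41.2 and 37.4 CPM in WT, and Glut1Tg replicate 3 was not its highest library. Its log2 fold change was -0.27 ± 0.18 (adjusted p = 0.68). None of the 3 genes passed the test by mouse group, with log2 fold changes of mouse group 2 over mouse group 1 of -0.09 (Ifit1), -0.13 (Ifit2) and -1.09 (Ifit3).

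The OAS proteins make short 2′-5′ linked adenylate chains on contact with double-stranded RNA, which activate RNase L. Oas1a had 0.908, 1.09, 7.11 and 1.21 CPM in Glut1Tg, against 1.25, 1.34, 1.83, 2.71 and 1.61 CPM in WT. Oas2 had 1.02, 0.398, 4.55 and 0.770 CPM in Glut1Tg and 0.231, 0.974, 0.974, 1.53 and 1.32 CPM in WT. Both were highest in Glut1Tg replicate 3, and Oas2 rested on as few as 5 counts in WT replicate 1 and 8 in Glut1Tg replicate 2. Oasl2 had 2.27, 2.09, 18.9 and 3.05 CPM in Glut1Tg and 6.88, 4.58, 7.14, 6.47 and 6.62 CPM in WT. Its 3 other Glut1Tg libraries were all below the WT libraries, while replicate 3 was above them all. With all libraries the log2 fold change of Oasl2 was -0.35 ± 0.73 (adjusted p = 0.89). Without Glut1Tg replicate 3 it was -1.42 ± 0.24, with an edgeR unadjusted p of 0.00031 and an adjusted p of 0.80. That library was singled out from these same values, so the smaller spread and the unadjusted p follow in part from the choice and are no independent test.

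Oas3 (ENSMUSG00000032661, GRCm38 chr5:120753098-120777661, minus strand) followed another order. It had 9.001, 13.6, 7.29 and 8.89 CPM in the libraries of mouse group 2 (Glut1Tg replicate 1, then WT replicates 2, 4 and 5), against 2.93, 7.31, 3.72, 2.54 and 5.32 CPM in those of mouse group 1 (Glut1Tg replicates 2, 3 and 4, then WT replicates 1 and 3). The groups met only where Glut1Tg replicate 3 of mouse group 1 reached the level of WT replicate 4 of mouse group 2. The log2 fold change of mouse group 2 over mouse group 1 was 1.19 ± 0.38, and edgeR's adjusted p was 0.0495. In the exact permutation test over 126 splits, two-sided, p was 0.024, and 0.32 after adjustment over the 27 genes tested this way. By genotype the log2 fold change of Oas3 was 0.10 ± 0.38 (adjusted p = 0.94).

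Among the sensors and editors of nucleic acid, Ddx58, which encodes the RNA sensor RIG-I, had 40.5, 69.7, 94.0 and 83.03 CPM in Glut1Tg and 65.8, 67.4, 71.0, 86.1 and 84.3 CPM in WT, a genotype log2 fold change of -0.18 ± 0.26 (adjusted p = 0.83). Zbp1, a sensor of Z-form nucleic acid, had 80.0, 96.2, 135.2 and 84.3 CPM in Glut1Tg and 73.0, 82.9, 102.0, 134.9 and 113.5 CPM in WT. Both genes were highest in Glut1Tg replicate 3, for Zbp1 by a narrow margin over WT replicate 4, and the genotypes overlapped. Adar, which encodes an enzyme that turns adenosine to inosine in double-stranded RNA, went the other way, with 143, 138, 110.4 and 141 CPM in Glut1Tg and 134, 149.8, 166, 126 and 148 CPM in WT, so that Glut1Tg replicate 3 was its lowest library. Ifih1 (the sensor MDA5) and Dhx58 (LGP2) ranged from 11.4 to 19.9 and from 11.01 to 28.2 CPM, each with its maximum in Glut1Tg replicate 3 and its minimum in Glut1Tg replicate 1. Eif2ak2, the kinase PKR that halts translation, ranged from 14.3 to 46.9 CPM with its maximum in WT replicate 2. None of the 6 passed the test by genotype (smallest adjusted p = 0.78) or by mouse group (smallest adjusted p = 0.28).

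Among the transcription factors, Irf9 is the DNA-binding part of ISGF3, Irf7 amplifies interferon production and Irf1 is induced by interferon and by T cell activation. Irf1 had 298, 651, 1075 and 756 CPM in Glut1Tg, against 610, 286, 618, 885 and 841 CPM in WT. Irf7 had 14.8, 29.0, 60.2 and 31.9 CPM in Glut1Tg and 19.1, 21.9, 28.9, 63.4 and 40.3 CPM in WT. Irf9 had 104, 185, 245 and 196 CPM in Glut1Tg and 190.2, 129, 192, 208 and 176 CPM in WT. In all 3 genes Glut1Tg replicate 1 was low and both Glut1Tg replicate 3 and WT replicate 4 were high, and the genotypes overlapped over most of their range. The genotype log2 fold changes were -0.13 ± 0.46 for Irf1, -0.0016 ± 0.61 for Irf7 and -0.18 ± 0.22 for Irf9, with adjusted p of 0.94, 1.00 and 0.80. By mouse group the nearest to the threshold was Irf9, at -0.47 ± 0.22 (adjusted p = 0.16). Irf9 shares exon bases with Rnf31 on the same strand, so reads in the shared part may belong to either gene.

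The ISG15 system couples a ubiquitin-like protein to its targets. Isg15 had 1.85, 1.49, 9.19 and 1.34 CPM in Glut1Tg and 1.66, 1.79, 1.06, 3.21 and 1.87 CPM in WT, with Glut1Tg replicate 3 far above the rest. Its log2 fold change was 0.90 ± 0.77 (adjusted p = 0.71) and -0.11 ± 0.33 without that library. Usp18, which removes ISG15 and dampens the interferon receptor, had 3.86, 2.39, 10.03 and 2.65 CPM in Glut1Tg and 2.49, 4.02, 3.98, 10.8 and 5.60 CPM in WT, and its highest libraries were WT replicate 4 and Glut1Tg replicate 3.

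Herc6, the main ligase for ISG15 in the mouse, was the clearest difference by mouse group. It had 22.7, 33.1, 29.7 and 31.9 CPM in mouse group 2 (Glut1Tg replicate 1, then WT replicates 2, 4 and 5), against 17.3, 17.7, 20.2, 18.9 and 20.8 CPM in mouse group 1 (Glut1Tg replicates 2, 3 and 4, then WT replicates 1 and 3). Every library of mouse group 2 was above every library of mouse group 1, and within mouse group 2 the Glut1Tg library was below the 3 WT libraries. Its log2 fold change by mouse group was 0.53 ± 0.14 (adjusted p = 0.024), and the exact permutation p was 0.0079, the smallest that 126 splits allow, or 0.21 after adjustment over 27 genes. By genotype the log2 fold change was -0.25 ± 0.14 (adjusted p = 0.68). Herc6 (ENSMUSG00000029798, GRCm38 chr6:57581000-57664632, plus strand) shares no annotated exon bases with another gene.

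Parp9 and Dtx3l encode the partners of an ADP-ribosylation and ubiquitin ligase complex, and Parp14 a related ADP-ribosyltransferase. Parp9 had 82.3, 97.1, 172 and 106 CPM in Glut1Tg and 86.1, 96.0, 88.9, 102.9 and 98.4 CPM in WT. Parp14 had 113, 139, 223 and 174 CPM in Glut1Tg and 139.8, 150.0, 158, 131 and 144 CPM in WT. Both were highest in Glut1Tg replicate 3, and both were above the WT range in Glut1Tg replicate 4 too. Dtx3l had 147, 139, 177 and 169.9 CPM in Glut1Tg and 127, 191, 127, 178 and 179 CPM in WT, with no library standing apart. Parp9 and Dtx3l are read in opposite directions from starts 681 bases apart on chromosome 16 and share exon bases on opposite strands. The sources used here name no strand setting for the counting, so reads in the shared part may belong to either gene. Genotype log2 fold changes were 0.23 ± 0.23 for Parp9, 0.04 ± 0.19 for Parp14 and 0.10 ± 0.16 for Dtx3l, with adjusted p of at least 0.75.

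Of the other antiviral effectors, Mx1 had 0.227, 0.0995, 2.80 and 0.469 CPM in Glut1Tg and 0.739, 0.243, 0.731, 0.627 and 0.403 CPM in WT. Its 4 Glut1Tg libraries held 6, 2, 70 and 14 counts, so Glut1Tg replicate 3 held most of its Glut1Tg counts. Rsad2, the enzyme viperin, showed the highest ratio of that library to the median of the other 8 libraries, 8.41, and held 5, 7, 93 and 16 counts in Glut1Tg and 5, 5, 26, 50 and 17 counts in WT. Samd9l, an inhibitor of growth and of viral translation, had 40.6, 66.6, 127 and 125 CPM in Glut1Tg and 98.1, 71.7, 89.2, 166 and 103 CPM in WT. Xaf1, a pro-apoptotic factor, had 19.7, 34.2, 83.02 and 37.3 CPM in Glut1Tg and 30.8, 26.5, 39.0, 43.5 and 38.9 CPM in WT. Samd9l was highest in WT replicate 4 and Xaf1 in Glut1Tg replicate 3, and both were lowest in Glut1Tg replicate 1. Trim30a, a mouse TRIM protein that restrains inflammatory signalling, had 73.4, 74.9, 77.0 and 80.5 CPM in Glut1Tg and 86.6, 89.5, 77.5, 103.7 and 96.4 CPM in WT, the narrowest Glut1Tg spread relative to its mean among the 36 genes. Only Glut1Tg replicate 4 overlapped the WT libraries. Its log2 fold change was -0.20 ± 0.12 (edgeR adjusted p = 0.68), and the exact permutation p was 0.032, or 0.86 after adjustment over 27 genes.

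Bst2, which encodes tetherin, a membrane protein that holds budding viruses on the cell, was singled out after its values were seen, as the gene with the smallest genotype p. It had 44.4, 22.8, 64.0 and 22.1 CPM in Glut1Tg and 14.4, 25.9, 20.7, 26.6 and 19.0 CPM in WT. Glut1Tg replicates 1 and 3 were above the WT range, and Glut1Tg replicates 2 and 4 within it. The log2 fold change was 0.99 ± 0.35 (unadjusted p = 0.018, adjusted p = 0.68), and 0.59 ± 0.19 without Glut1Tg replicate 3 (adjusted p = 0.80).

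Of the remaining genes, Rtp4, a chaperone of the receptor transport family, had 5.86, 12.2, 72.9 and 15.7 CPM in Glut1Tg and 12.1, 9.78, 12.1, 22.6 and 16.8 CPM in WT. Lgals3bp, a secreted galectin ligand, had 76.3, 77.9, 228 and 79.0 CPM in Glut1Tg and 55.1, 63.4, 82.8, 94.7 and 60.7 CPM in WT. Glut1Tg replicate 3 was the highest library in both, at 5.98 times the median of the other 8 libraries for Rtp4 and 2.96 times for Lgals3bp. Ifi27l2a had 149.8, 186, 364 and 144 CPM in Glut1Tg and 197, 175, 164, 234 and 173 CPM in WT. Ifi27 had 31.4, 87.7, 137 and 93.2 CPM in Glut1Tg and 87.6, 48.4, 88.5, 106 and 83.8 CPM in WT. Both again peaked in Glut1Tg replicate 3, and Ifi27 was low in Glut1Tg replicate 1 and WT replicate 2. Ifi35, a leucine zipper protein, had its maximum of 87.8 CPM in Glut1Tg replicate 1 instead. Genotype adjusted p for these genes were at least 0.68.

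**Figure D3:**
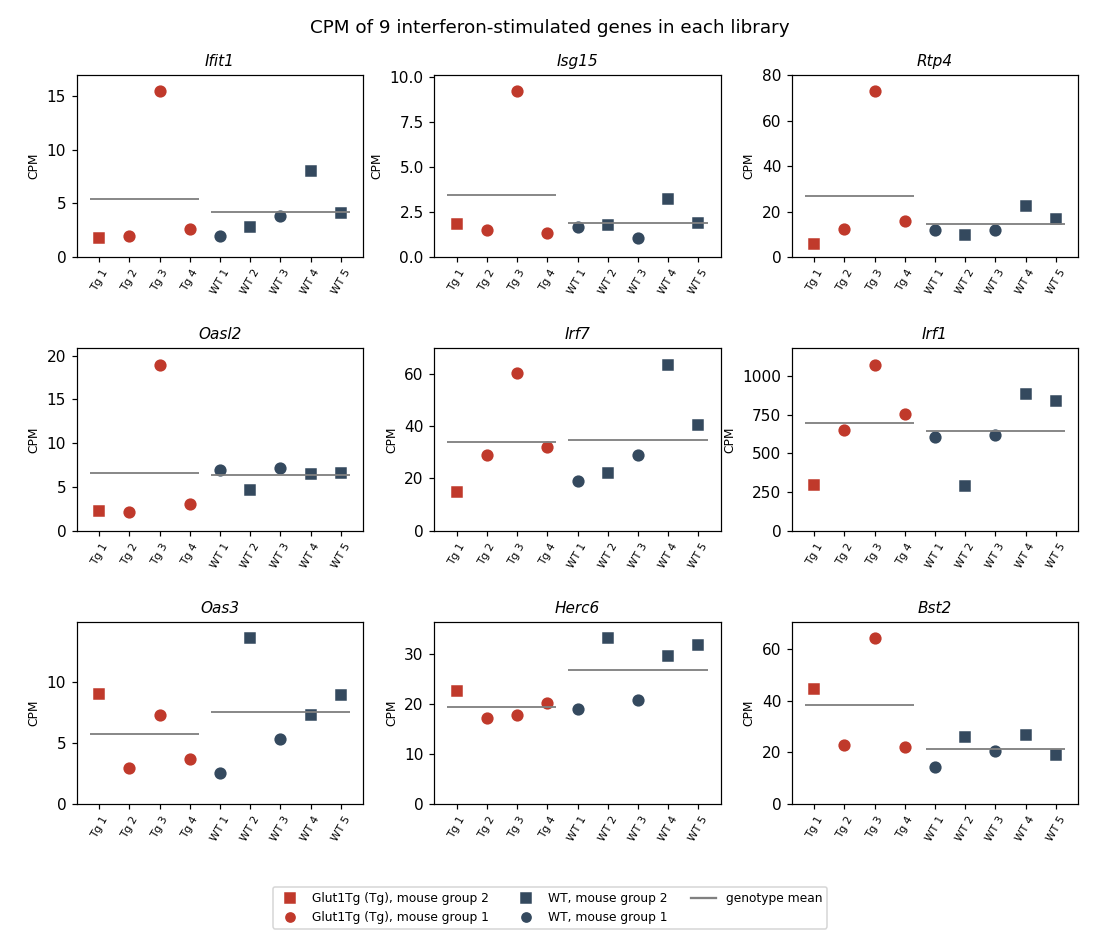
CPM of 9 genes in each library, with Glut1Tg (Tg) on the left of each panel and WT on the right, squares for mouse group 2, circles for mouse group 1 and a line at the genotype mean. Ifit1, Isg15, Rtp4 and Oasl2 are carried by Glut1Tg replicate 3, Irf7 and Irf1 are also high in WT replicate 4, and Oas3 and Herc6 are higher in mouse group 2.

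Across the 34 genes, Herc6 and Oas3 were the 2 called higher in mouse group 2, against 13.1% of all genes called higher, and 0 were called lower, against 11% of all genes. At an unadjusted p of 0.05 there were 4, against 39.4% of all genes: besides Herc6 and Oas3 these were Ifi35, with a log2 fold change of 0.68 ± 0.22 (adjusted p = 0.053), and Cmpk2, a mitochondrial nucleotide kinase, at 1.17 ± 0.44 (adjusted p = 0.082). Ifi35 and Cmpk2 were named after their values were seen. The mouse groups did not overlap in 1 gene (Herc6), against 21.8% of all genes. The median log2 fold change was -0.12 over the 34 genes, 14 of them positive and 20 negative, and -0.01 over all genes. That direction turned with the libraries used: the median was 0.29 without Glut1Tg replicate 1 and 0.29 in WT libraries only, each with 27 positive and 7 negative, and 0.04 without Glut1Tg replicate 3, with 21 positive and 13 negative. Called genes numbered 0 with either Glut1Tg replicate 1, Glut1Tg replicate 2, WT replicate 1, WT replicate 2 or WT replicate 3 left out, 1 without Glut1Tg replicate 4 or WT replicate 5, 2 without WT replicate 4 and 5 without Glut1Tg replicate 3. With Glut1Tg replicate 1 and WT replicate 2 both left out, the log2 fold changes were 0.65 for Herc6 (adjusted p = 0.080) and 1.06 for Oas3 (adjusted p = 0.28). These 2 libraries, high in proliferation markers, were both above the other 7 in Oas3, Eif2ak2, Cmpk2 and Ifi35 (11.8% of the 34 genes, 22.6% of all genes). They were both below the other 7 in Ifit3, Irf1, Irf9, Rsad2, Xaf1, Rtp4 and Ifi27 (20.6% of the 34 genes, 19.7% of all genes). The part of proliferation in the difference by mouse group was not tested.

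**Figure D4:**
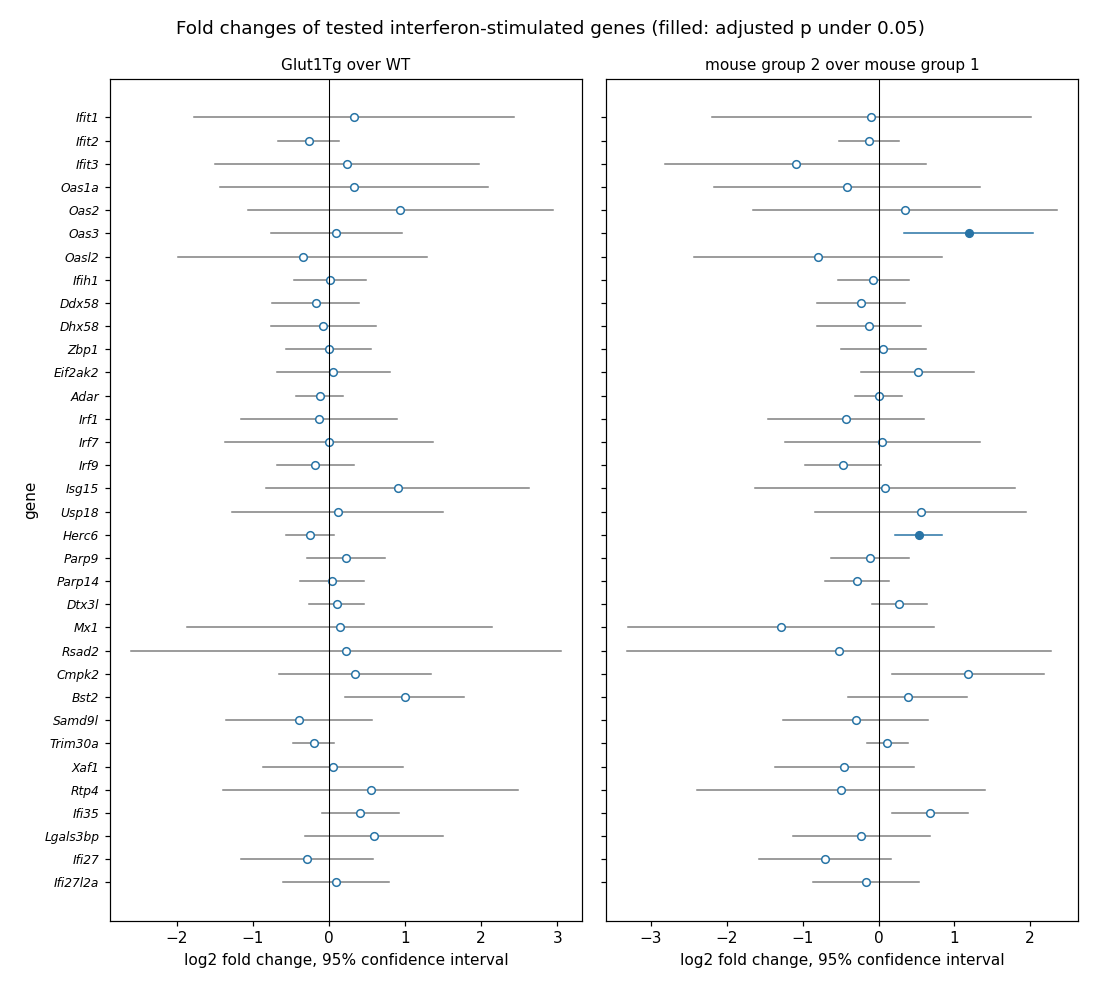
Log2 fold changes with 95% confidence intervals for the 34 tested genes, Glut1Tg over WT on the left and mouse group 2 over mouse group 1 on the right. Filled points mark an adjusted p under 0.05. No gene is filled on the left, and Oas3 (1.19) and Herc6 (0.53) are filled on the right.

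The interaction of genotype with mouse group asks whether the Glut1Tg to WT difference in mouse group 2 differs from that in mouse group 1. It rests on 1 Glut1Tg library in mouse group 2, the low Glut1Tg replicate 1, and mouse group 1 holds the high Glut1Tg replicate 3. The interaction log2 value was negative for 32 of the 34 genes, with a median of -1.02, while 7350 of 14817 genes were negative and the median over all genes was 0.01. No gene passed at an adjusted p of 0.05, as for 0% of all genes. At an unadjusted p of 0.05, 7 of the 34 genes were negative, against 4.08% of all genes, and 0 were positive. Ddx58 had the smallest p, at -1.23 ± 0.31 (edgeR unadjusted p = 0.0038, adjusted p = 0.74), followed by Ifi27, at -1.60 ± 0.55 (unadjusted p = 0.018). Without Glut1Tg replicate 3 the median was -0.48, with 26 of 34 negative.

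The rest of the pathway was described from lists of 84 genes, of which 65 were tested. By genotype 0 of the 65 passed, with 36 positive and 29 negative. By mouse group 12 were higher and 7 lower in mouse group 2, against 13.1% and 11% of all genes. Of 14 interferon ligand genes, 1 was tested, Ifng, the type II interferon, which rose to 3.31 ± 1.73 CPM in mouse group 2 (SD, n = 4), against 1.32 ± 0.50 CPM in mouse group 1 (SD, n = 5), with a log2 fold change of 1.44 ± 0.39 (SE; edgeR adjusted p = 0.029). The groups overlapped: Glut1Tg replicate 1 (5.60 CPM) and WT replicate 2 (3.69 CPM), the libraries high in proliferation markers, were above all others, while WT replicates 4 and 5 (1.84 and 2.12 CPM) lay below or level with Glut1Tg replicate 3 of mouse group 1 (2.12 CPM). Ifnb1, the gene of interferon beta, was at 0.0995 CPM in Glut1Tg replicate 2 and at 0 in the other 8 libraries.

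Of 6 receptor chains, Ifngr2 of the interferon gamma receptor fell (log2 fold change -0.84 ± 0.14, adjusted p = 0.0056) and Il10rb, shared by interferon lambda and interleukin-10, rose (0.55 ± 0.13, adjusted p = 0.017) in mouse group 2. The type I receptor chains did not pass, Ifnar1 at -0.70 ± 0.23 (adjusted p = 0.056) and Ifnar2 at -0.44 ± 0.14 (adjusted p = 0.0502). Of 10 signalling and feedback genes 2 rose and 3 fell, against 13.1% and 11% of all genes. Ptpn6, the phosphatase SHP-1 that dampens JAK signalling, rose (log2 fold change 1.18 ± 0.23, adjusted p = 0.0092). Stat2, a part of ISGF3, named after its values were seen, had 86.4, 121, 238 and 123 CPM in Glut1Tg and 115, 103, 144, 116 and 112 CPM in WT, with its maximum in Glut1Tg replicate 3.

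Of 15 tested genes upstream in nucleic acid sensing, 5 rose and 1 fell in mouse group 2, against 13.1% and 11% of all genes. Mavs, the adaptor that RIG-I and MDA5 signal through, rose most clearly (log2 fold change 1.69 ± 0.17, adjusted p = 0.0013), and the kinase gene Tbk1 fell (-0.65 ± 0.10, adjusted p = 0.0045). Of 33 other tested interferon-induced genes, 3 rose and 2 fell, both below the same shares of all genes. Those with the smallest p were Tor3a, of the torsin family (-1.22 ± 0.19, adjusted p = 0.0039), and Gm4951, a predicted gene (2.21 ± 0.38, adjusted p = 0.0056).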

How the data were processed

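Stranded TruSeq mRNA libraries from RNeasy-purified RNA were read as 75 bp pairs, per the labels' protocols. The submitters' processing notes name build mm10 and the tools featureCounts, TopHat2, bcl2fastq and DESeq2; the sources used here give neither versions nor a strand setting. The deposited count table held raw counts per gene for the 9 libraries. The deposited table of log2 values, relative to WT replicates 1 and 3, whose values summed to 0 in each gene, held 13700 genes and served 1 alternative.

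The count test was edgeR 4.0.16 in R 4.3.3: filterByExpr by genotype, TMM scaling and a quasi-likelihood fit with mouse group and genotype terms on all 9 libraries, with Benjamini-Hochberg adjustment over 14817 genes at 0.05. SE was derived from the log2 fold change and its F statistic. The interaction was fitted the same way. CPM used TMM-scaled totals, and log2 CPM a prior count of 2. All library pairs differed beyond sampling noise. The scripts were tested on simulated data. Positions and exon lengths came from GENCODE annotation of GRCm38. Two-sided exact permutation tests of log2 CPM over 126 splits were run for the 27 genes given in full: up to 3 per role, called genes first and then those with the highest CPM, plus the 5 with the widest gap between the highest and the next library. From each pathway list the 2 genes with the smallest p among those called were named, except 1 that is not reported here; other genes were named after their values were seen. The genes, lists and tests were chosen with earlier results of these data known. Alternatives were other scalings, no filter, DESeq2 1.42.0, limma 3.58.1 (voom, and on the log2 table), other terms, single mouse groups and left-out libraries.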

Additional observations from a re-analysis of the deposited data

Results flagged for a closer look

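In groups of 4 or 5 libraries of one genotype, on the log2 CPM scale, single libraries lay far from the rest of their group in 7 of 68 groups (10.3%). The nominal rate of such flags is about 1 in 20 groups. The share over all genes was not computed and the 68 groups share the same 9 libraries, so no excess particular to these genes is shown. Of the 7 flags, 5 were Glut1Tg replicate 3. There Oas1a at 7.11 CPM, Oasl2 at 18.9 CPM, Isg15 at 9.19 CPM and Lgals3bp at 228 CPM were far above the other 3 Glut1Tg libraries, and Adar at 110.4 CPM was far below them. That library also had the highest summed mast cell and basophil, macrophage and neutrophil, and platelet and erythroid markers, and their part in these values was not tested. The other two were in WT: Oas2 at 0.231 CPM in WT replicate 1, from 5 counts, and Oasl2 at 4.58 CPM in WT replicate 2, both below the rest of their group.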

How the results depend on the processing

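By genotype, 0 of the tested genes were called under all 20 alternatives, and the median log2 fold change was -0.50 in mouse group 2 alone, where Glut1Tg is the single low replicate 1; over the left-out libraries it ranged from -0.28 to 0.32, and it was -0.04 with limma-voom and -0.03 on the deposited log2 table. By mouse group the 2 calls became 1 with upper quartile scaling, 4 with DESeq2 and 4 with limma-voom, and 0 in WT libraries only or without Glut1Tg 1 and WT 2 together, where the median was 0.40; over single left-out libraries the count ranged from 0 to 5 and the median from -0.34 to 0.29. Herc6 was called in 10 and Oas3 in 8 of the 18 alternatives; their log2 fold changes were positive in all, from 0.44 to 0.67 and from 0.91 to 1.44, with adjusted p from 0.0014 to 0.11 and from 0.0087 to 0.28. The cause of the lost calls was not tested. The interaction calls were 0 under each alternative that could be fitted (chosen, like the next, after seeing the data); without Glut1Tg replicate 1 none could. Genes highest in Glut1Tg replicate 3 numbered 20 to 22 under the other scalings and in the deposited log2 table. The genotype median was 0.08 with a replicate block, with 0 calls; deviations of same-numbered libraries correlated at -0.51, -0.59, 0.23 and -0.21, so the numbers were not taken as pairs. Low counts limit Oas2, Mx1, Rsad2, Oasl1 and Ifi44.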
